A study of Caenorhabditis elegans with 165 samples.

Results

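The comparison described here sets 2 Caenorhabditis elegans strains with fused chromosomes directly against each other. Strain 15eh1 carries a fusion of the X chromosome to chromosome V (X;V in its labels), and strain YPT41 a fusion of X to chromosome II. Transcripts were counted by RNA-seq of total RNA from whole worms, with the stage given as L1-L3 larvae. Replicates 2, 3 and 4 of each strain were taken, which makes 6 of the 165 samples of the series and 6 of its 12 RNA-seq libraries with a file. The wild-type strain N2 and replicate 1 of every strain stayed out of the comparison, and N2 replicates 2 to 4 appear below as reference values and in 1 alternative fit. Both strains carry X joined to an autosome, so neither serves as an unfused control for the other. The labels name no treatment and no further allele, and they do not say which chromosome ends were joined. Each fusion is represented by 1 strain, so an effect of the fusion and any other difference of that strain's genome cannot be told apart. The labels do not say that replicates were separate cultures, and p-values therefore measure the spread between these libraries, which may be technical.

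In hermaphrodite worms, the output of X is lowered by dosage compensation, for which a specialised condensin is loaded onto X at recruitment sites and spreads from them along the chromosome. In strains with X joined to an autosome, this condensin complex is known to reach past the junction into autosomal sequence. Setting the strains against each other gives each autosome a comparison in which only 1 strain has it joined to X, while X itself is fused in both. The questions the design poses are thus whether genes of V are lower in 15eh1, whether genes of II are lower in YPT41, and whether X is alike in both.

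Gene counts per library ran from 8237095 in YPT41 replicate 3 to 27079687 in 15eh1 replicate 4, and 15296 to 18132 genes had a count. The libraries of 15eh1 resembled each other more than those of YPT41. Between a pair of 15eh1 libraries, the median absolute log2 difference per gene was 0.218 to 0.296, and between a pair of YPT41 libraries it was 0.375 to 0.566. YPT41 replicate 2 differed from 15eh1 replicate 3 by 0.217, as little as the 15eh1 libraries did from each other, and YPT41 replicate 4 was 0.549 or more from every 15eh1 library. The first principal component held 51.5% of the variance and placed the 15eh1 libraries at -37.9 to -29.8, YPT41 replicate 2 at -20.8, replicate 3 at 31.1 and replicate 4 at 90.7. Levels of larval and adult marker groups also varied inside both strains. The summed level of the vitellogenins, yolk proteins of the adult intestine, ranged from 5.23 to 442 CPM (gene counts as a rate per library size, the same scale in every library) in 15eh1 and from 2.84 to 240 CPM in YPT41. The summed col collagens, cuticle proteins that are made in waves with each molt, stood at 21010, 14850 and 22380 CPM in 15eh1 and at 16160, 12320 and 40320 CPM in YPT41. Of 40 sperm genes 1 was expressed enough to be tested, and of 14 embryo regulators 7 were. What part stage or growth differences between libraries have in the results below was not tested. In whole worms, fewer cells of a type and less RNA per cell cannot be told apart.

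Of 13099 genes tested with edgeR's quasi-likelihood test, 21 passed an adjusted p of 0.05 (0.16%). Of these, 11 were higher in 15eh1 (0.084% of tested genes) and 10 were lower (0.0763%). An unadjusted p under 0.05 was reached by 1261 genes, and over all tested genes the median log2 fold change (15eh1 over YPT41) was -0.02. Chromosome II held 6 of the genes that were higher in 15eh1 and 1 that was lower, and chromosome V held 3 and 7. Chromosome IV held 2 that were higher, chromosomes I and X 1 each that was lower, and chromosome III none of either kind. Of the 2031 tested genes of III, 39 that were higher and 82 that were lower had an unadjusted p under 0.05 by edgeR. Over all 13099 tested genes, 1261 had such a p in either direction. DESeq2 gave 2 genes of III that were higher and 11 that were lower in 15eh1. Over all 13064 genes it tested, it gave 83 and 208. The count of calls depended on single libraries. It was 3 without 15eh1 replicate 2, 6 without its replicate 3 and 3 without its replicate 4, and it was 293 without YPT41 replicate 2, 10 without its replicate 3 and 53 without its replicate 4. All 21 genes were among the 293, of which 189 were higher in 15eh1 (64.5%, against 52.4% of the 21). The genes gmeb-1, sqt-2 and best-3 passed in 6 of the 6 fits that each left out 1 library.

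**Figure D1:**
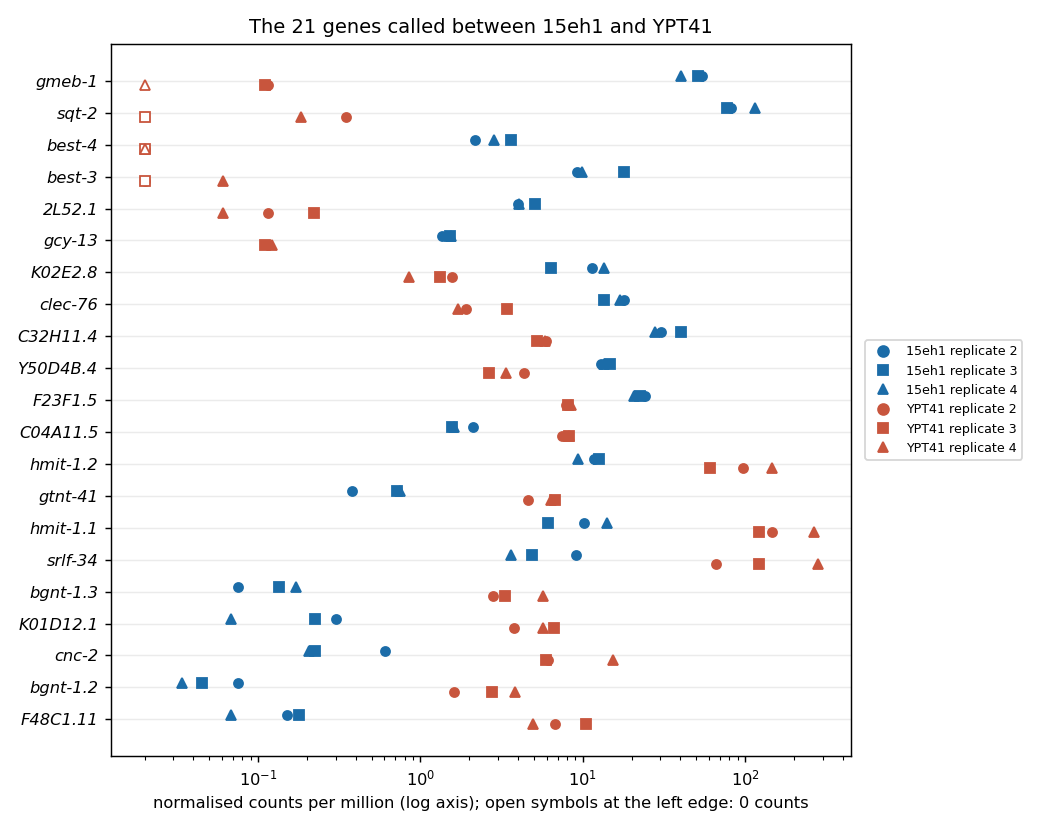
Normalised counts in CPM (log axis) of the 21 genes that passed the test, 1 symbol per library, with 15eh1 in blue above and YPT41 in red below on each line; circles, squares and triangles are replicates 2, 3 and 4. No gene has overlapping strains, and for gmeb-1, sqt-2, best-4 and best-3 at least 1 YPT41 library has 0 counts.

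The strongest difference lay at the very left end of chromosome II, where a run of genes was almost silent in YPT41. The gene gmeb-1, the worm counterpart of the mammalian glucocorticoid modulatory element binding proteins, stood at 54.6, 51.2 and 40.1 CPM in 15eh1 replicates 2 to 4 and at 0.116, 0.111 and 0 CPM in those of YPT41. These levels rest on 3040 pooled counts in 15eh1 and 3 in YPT41, a ratio of 668 after scaling to library size, with a 95% counting interval of 228 to 3240 (edgeR adjusted p = 0.000773). The cuticle collagen gene sqt-2, known for its mutants with altered body shape, stood at 82.4, 77.4 and 115 CPM in 15eh1 and at 0.348, 0 and 0.183 CPM in YPT41 (edgeR adjusted p = 0.000985). Every YPT41 library was thus far below every 15eh1 library for both genes. Their neighbour best-3, of the bestrophin family of chloride channels, had 9.18, 17.9 and 9.88 CPM in 15eh1, and among the YPT41 libraries only replicate 4 had a count (edgeR adjusted p = 0.00668). A second bestrophin gene, best-4, had 192 pooled counts in 15eh1 and 0 in YPT41, at least 42.2-fold higher in 15eh1 against a floor of 3 counts pooled over the strain (edgeR adjusted p = 0.0423). The gene 2L52.1 had 285 pooled counts in 15eh1 and 5 in YPT41 (edgeR adjusted p = 0.0136).

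Taken in the gene order of the RefSeq annotation, the silent genes were contiguous. From the left end of II inward, 7 genes had less than 0.1 of their 15eh1 level in YPT41: 2L52.1, osta-1, best-4, best-3, gmeb-1, sqt-2 and enee-1. The pooled counts of osta-1, which encodes an organic solute transporter subunit, were 114 in 15eh1 and 1 in YPT41, and those of enee-1 were 91 and 3. Neither passed the test, with edgeR adjusted p = 0.055 for osta-1 and 0.101 for enee-1. N2 had 83 to 8098 pooled counts for each of the 7 genes, against 0 to 9 in YPT41. Reads returned at the eighth gene. F23F1.4 had 1655 pooled counts in 15eh1 and 475 in YPT41, and the ninth gene, F23F1.5, had 1429 and 349. For F23F1.5 the levels were 24.2, 22.4 and 20.8 CPM in 15eh1 and 7.88, 8.08 and 8.52 CPM in YPT41, and it passed the test (log2 fold change 1.46, SE 0.19, edgeR adjusted p = 0.0435). The counting intervals and floors cover counting error only. At this depth, 3 counts correspond to 0.111 to 0.364 CPM in a library, so a level under that range was not detectable as different from 0. Whether these 7 genes are missing from the YPT41 genome or present and silent cannot be told apart from read counts.

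Genes of the left end of II were mostly higher in 15eh1, with the silent run and without it. Among the 100 tested genes nearest the end, the run included, the median log2 fold change was 0.59 (quartiles 0.33 and 0.97), 91 were above 0 and 6 passed the test, all higher in 15eh1 (6 of 100, against 0.084% of all tested genes). Of these 6, 5 belong to the silent run. All 3 libraries of 15eh1 lay above all 3 of YPT41 for 58% of these genes, against 7.42% of all tested genes, and for none of them did all 3 lie below, against 8.94%. With the 7 silent genes set aside and the window moved inward to the next 100 genes, the median was 0.55, 1 gene (F23F1.5) passed the test and 54 genes had strains that did not overlap, all higher in 15eh1. The mean log2 CPM of the window, relative to other autosomal genes, was 0.01, 0.02 and 0.08 in 15eh1 replicates 2 to 4 and -0.99, -0.84 and -0.79 in those of YPT41. With the 7 genes set aside it was 0.12 ± 0.05 (SD, n = 3) in 15eh1 and -0.43 ± 0.13 (SD, n = 3) in YPT41. The strains did not overlap in either form of the window. With 3 libraries against 3, an exact two-sided permutation test cannot go below p = 0.1, so no p is given for windows. On a scale shared with N2, the whole window read -0.01 to 0.08 in N2, -0.01 to 0.06 in 15eh1 and -1.01 to -0.80 in YPT41.

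Single genes of this window show the size of the difference, although none of the genes named in this paragraph passed the test. They were chosen after their values were seen, except rpt-4, mlt-10, mlt-8 and cdc-37, which are the highest-expressed named genes of the window. The gene mcat-1, a malonyl-CoA-acyl carrier protein transacylase of fatty acid synthesis, stood at 18.1, 19.6 and 18.1 CPM in 15eh1 and at 9.04, 8.53 and 9.13 CPM in YPT41 (edgeR adjusted p = 0.111). The gene mrpl-28, of the mitochondrial ribosome, stood at 31.7, 34.4 and 25.6 CPM and at 13.4, 10.7 and 15.1 CPM (edgeR adjusted p = 0.112). The gene sptl-1, a serine palmitoyltransferase subunit of sphingolipid synthesis, stood at 85.8, 100 and 92.1 CPM and at 50.9, 46 and 46.7 CPM (edgeR adjusted p = 0.129). The replicates of each strain were close together for all 3 genes and the strains did not overlap. For rpt-4, an ATPase subunit of the proteasome, levels were 92.5, 107 and 114 CPM in 15eh1 and 73.2, 55.2 and 85.6 CPM in YPT41 (edgeR adjusted p = 0.5). The molting gene mlt-10 had means of 255 ± 92.7 and 170 ± 50.1 CPM (SD, n = 3 each), the molting gene mlt-8 had 118 ± 20.2 and 114 ± 34.1 CPM, and cdc-37, a co-chaperone of Hsp90, had 122 ± 24.1 and 76.8 ± 25.3 CPM, with overlapping strains in each case.

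At the right end of chromosome V the difference ran the other way. The median log2 fold change of the 100 tested genes nearest the end was -0.77 (a fold of 0.588, quartiles -1.01 and -0.50), and 89 of the 100 were below 0. The strains did not overlap for 62 genes that were lower in 15eh1, 62% against 8.94% of all tested genes, and for 2 that were higher. The mean log2 CPM of the window relative to other autosomal genes was -0.89, -0.93 and -0.86 in 15eh1 replicates 2 to 4 and -0.36, -0.21 and -0.10 in those of YPT41. The strains did not overlap, and the 15eh1 libraries were close together. On the scale shared with N2, the window read -0.37 to -0.27 in N2, -0.94 to -0.88 in 15eh1 and -0.38 to -0.12 in YPT41. None of the genes lower in 15eh1 in this window passed edgeR's test on its own, although 49 of the 100 had an unadjusted p under 0.05 with 15eh1 lower. Over all 13099 tested genes, 1261 had such a p in either direction. By DESeq2, 24 of the 100 passed with 15eh1 lower and 2 with it higher, against 208 and 83 of all 13064 genes it tested. With N2 in the edgeR fit, 4 of the window passed with 15eh1 lower and 1 with it higher. Over all 13299 genes of that fit, 43 and 31 passed.

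The highest-expressed named genes of the right end of V differed in how clearly the strains parted. The gene sbt-1, a chaperone of the enzyme that processes neuropeptide precursors, stood at 178, 153 and 172 CPM in 15eh1 and at 273, 448 and 725 CPM in YPT41 (log2 fold change -1.52, SE 0.35, edgeR adjusted p = 0.192). The hypoxia-inducible factor hif-1 stood at 471, 459 and 295 CPM in 15eh1 and at 658, 728 and 611 CPM in YPT41 (log2 fold change -0.71, SE 0.25, edgeR adjusted p = 0.421). For rpl-8, of the large ribosomal subunit, and mlt-11, a protease inhibitor gene needed for molting, the strains overlapped. Among genes named after their values were seen, mnr-1, the menorin gene that shapes sensory dendrites from the skin, had means of 12.1 ± 0.412 CPM in 15eh1 and 25.9 ± 1.38 CPM in YPT41 (SD, n = 3 each, edgeR adjusted p = 0.0895). The microtubule-associated gene elp-1 stood at 4.37, 4.44 and 3.97 CPM and at 9.91, 10.3 and 10.8 CPM (edgeR adjusted p = 0.108). The complex I subunit gene ndua-1 stood at 38, 37.6 and 43.2 CPM and at 63, 113 and 171 CPM (edgeR adjusted p = 0.183). The YPT41 replicates were close for mnr-1 and elp-1 and spread widely for ndua-1.

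Of the 100 genes of that window, 11 were above 0, and 2 of them had strains apart. Those 2 are next to each other among the tested genes. K02E2.8 stood at 11.4, 6.37 and 13.6 CPM in 15eh1 and at 1.56, 1.33 and 0.852 CPM in YPT41, and it was the 1 gene of the window that passed the test (log2 fold change 3.06, SE 0.41, edgeR adjusted p = 0.0435). Its neighbour grd-11, of the hedgehog-related family, stood at 7.68, 3.77 and 7.45 CPM and at 0.521, 1.99 and 0.183 CPM and did not pass (edgeR adjusted p = 0.236). N2 had means of 10.5 CPM for K02E2.8 and 3.37 CPM for grd-11, on the scale fitted with N2.

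**Figure D2:**
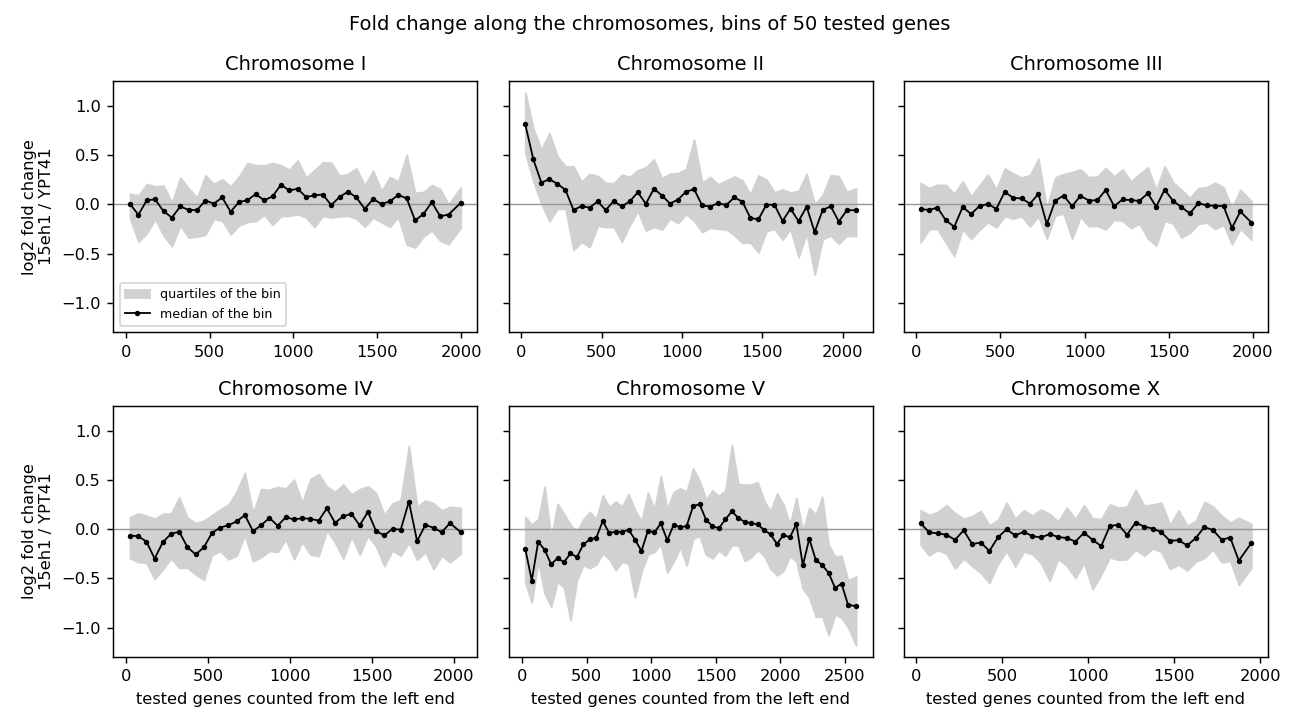
Median log2 fold change (15eh1 over YPT41) in bins of 50 tested genes along each chromosome, with the quartiles of each bin in grey; the horizontal axis counts tested genes from the left end. The line leaves 0 upward at the left end of II, to 0.81, and downward at the right end of V, to -0.78; on the left arm of V it also stays below 0, between -0.52 and -0.13 in the first 9 bins.

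Both differences faded inward over several bins of genes. On II, successive bins of 50 tested genes from the left end had median log2 fold changes of 0.81, 0.46, 0.22, 0.26, 0.21 and 0.15, and the seventh bin stood at -0.06. The number of the 50 genes with strains apart and 15eh1 higher was 37, 21, 14, 13, 10, 5 and 4 in these bins. On V, bins from the right end had medians of -0.78, -0.70, -0.65, -0.69, -0.59, -0.40, -0.27, -0.06, -0.34 and -0.05. In these, 32, 30, 22, 21, 19, 9, 14, 9, 12 and 4 of the 50 genes had strains apart and 15eh1 lower. The medians thus came near 0 by the seventh bin on II and by the eighth on V, with 1 further bin on V at -0.34. The left arm of V was below 0 as well, with medians from the left end of -0.20, -0.52, -0.13, -0.21, -0.36, -0.29, -0.34, -0.25 and -0.28 in its first 9 bins. In these, 5 to 11 of the 50 genes had strains apart and 15eh1 lower. Over all tested genes, 7.42% had strains apart with 15eh1 higher and 8.94% with it lower. The lowest counts of these bins are near those shares. These profiles describe position in gene order, since distances in bases were not used.

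The other ends and X had medians nearer to 0. The median log2 fold change was -0.28 at the left end of V and -0.05 at the right end of II, and at both the strains overlapped in relative level. The value for the left end of V was -0.11 without YPT41 replicate 4 and -0.10 with no filter on low counts. At the left end of V the libraries of 15eh1 read -0.995, -1.12 and -0.87, and those of YPT41 -0.91, -0.77 and -0.51. Over the 10 ends other than the left of II and the right of V, medians ran from -0.28 to 0.01, and at 1 of them, the right end of III, the strains did not overlap, with 15eh1 lower at 0.52 ± 0.01 against 0.69 ± 0.15 (SD, n = 3 each). Over the 1996 tested genes of X the median was -0.07 and 43.3% of genes were above 0, against 47.9% of all tested genes. That median was -0.11 without YPT41 replicate 2, -0.04 without its replicate 3, -0.03 without its replicate 4 and -0.03 with no filter. The relative level of X was -0.05, -0.06 and -0.06 in 15eh1 and -0.10, 0.10 and 0.11 in YPT41. The 15eh1 values lie between those of YPT41, and on the scale shared with N2 the N2 libraries read -0.11 to -0.03. On X, 5.66% of genes had strains apart with 15eh1 higher and 8.42% with 15eh1 lower, both below the shares over all tested genes.

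**Figure D3:**
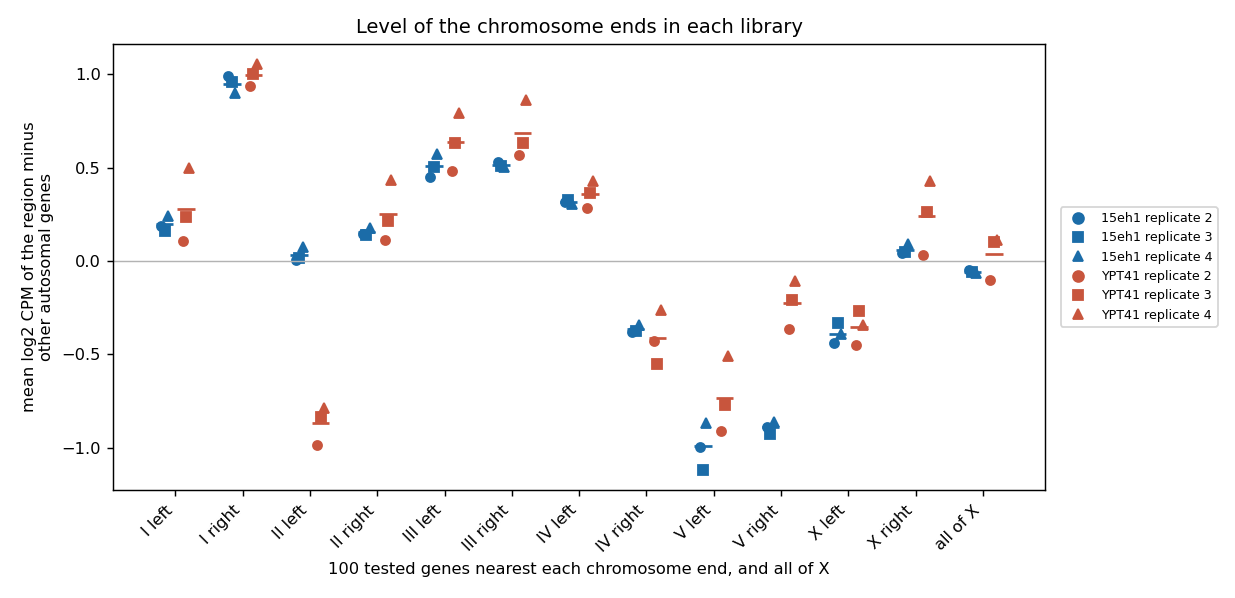
Mean log2 CPM of the 100 tested genes nearest each chromosome end, and of all X genes, minus that of other autosomal genes, 1 symbol per library, with short lines at the strain means. The strains lie far apart at the left end of II (0.03 against -0.87) and at the right end of V (-0.89 against -0.23).

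The dosage compensation complex itself was expressed at overlapping levels in both strains. All 10 of its genes were tested, none passed edgeR's test, none reached an unadjusted p under 0.05, and DESeq2 gave 0 as well. None had strains that did not overlap, with a median log2 fold change of 0.05. For dpy-27, its dedicated condensin subunit, levels were 102, 110 and 88 CPM in 15eh1 and 107, 113 and 63.9 CPM in YPT41. The recruiting factor sdc-2 stood at 24.9, 22.7 and 24.3 CPM and at 24.8, 31.7 and 6.76 CPM. The other recruiting factor, sdc-3, stood at 43.3, 48.5 and 35.1 CPM and at 46.6, 47 and 14.2 CPM. YPT41 replicate 4 was the lowest library for all 3 genes. The means of the condensin subunit genes mix-1, dpy-26, dpy-28 and capg-1 were 98.7, 55.4, 75.9 and 52.3 CPM in 15eh1 and 86.2, 55, 77.9 and 41.9 CPM in YPT41. The demethylase gene dpy-21 had 120 ± 27.8 and 158 ± 21.7 CPM and dpy-30 had 94.3 ± 11.3 and 101 ± 15.4 CPM (SD, n = 3 each). For sdc-1, levels were 11.4, 14 and 11.4 CPM in 15eh1 and 12.4, 15.5 and 11.5 CPM in YPT41. The direction of sdc-1, sdc-2, sdc-3, dpy-26, dpy-27, dpy-28 and dpy-30 changed when single libraries were left out, so no direction is given for them.

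Outside the 100-gene windows of these chromosome ends, genes lower in 15eh1 included transporters and enzymes that serve the response to salt. The myo-inositol transporter gene hmit-1.1 stood at 10.2, 6.15 and 14.2 CPM in 15eh1 replicates 2 to 4 and at 147, 121 and 265 CPM in those of YPT41 (log2 fold change -4.12, SE 0.44, edgeR adjusted p = 0.0218). Its neighbour hmit-1.2 stood at 11.7, 12.7 and 9.37 CPM and at 97.8, 60.6 and 148 CPM (log2 fold change -3.18, SE 0.35, edgeR adjusted p = 0.0232). The strains were far apart for both, and the similarity of the genes leaves it uncertain how reads were divided between them. Both lie on V, where 14.8% of all tested genes had strains apart with 15eh1 lower. They lie outside the window of the right end of V, but toward that end in gene order. In bins 3 to 6 from that end, 22, 21, 19 and 9 of 50 genes had strains apart with 15eh1 lower. Which bin holds hmit-1.1 and hmit-1.2 was not determined. The gene gpdh-1, a glycerol-3-phosphate dehydrogenase that makes the osmolyte glycerol, stood at 2.94, 1.3 and 1.74 CPM and at 7.94, 18.2 and 21.4 CPM and did not pass (edgeR adjusted p = 0.0751). Of the 10 tested genes of the osmotic response list, 2 passed, both lower in 15eh1, 5 had strains apart with 15eh1 lower (50%, against 8.94% of all tested genes), the peptide gene nlp-29 among them, and none with 15eh1 higher, and the median log2 fold change was -0.69. N2 had means of 15.4 CPM for hmit-1.1, 14.8 CPM for hmit-1.2 and 3.33 CPM for gpdh-1, values nearer to 15eh1 than to YPT41. That nearness was not tested. Neither hmit-1.1 nor hmit-1.2 passed when 15eh1 replicate 2, 3 or 4 was left out, and without YPT41 replicate 2 gpdh-1 passed as well.

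Genes for antimicrobial peptides of the epidermis were lower in 15eh1 as a group by count, though 1 passed the test. The caenacin gene cnc-2 stood at 0.602, 0.224 and 0.205 CPM in 15eh1 and at 6.14, 5.98 and 15.5 CPM in YPT41 (log2 fold change -4.84, SE 0.61, edgeR adjusted p = 0.0423). Its lowest levels in 15eh1 were near the floor of counting, so the size of the difference is not well known. Of 18 tested caenacin and nlp peptide genes, 17 had a log2 fold change below 0, the median was -1.60, and 12 had strains apart with 15eh1 lower (66.7%, against 8.94% of all tested genes). All of the 18 but cnc-8, on X, and cnc-6 and nlp-32, on III, lie on chromosome V. Of all tested genes of V, 14.8% had strains apart with 15eh1 lower and 41.3% were above 0. The caenacin gene cnc-4 stood at 15.4, 10.3 and 7.86 CPM and at 38.4, 40.3 and 64.8 CPM (edgeR adjusted p = 0.0751). The peptide gene nlp-34 stood at 10.9, 11 and 15.4 CPM and at 75.2, 69.3 and 250 CPM (edgeR adjusted p = 0.0751). The peptide gene nlp-29, known to be induced by fungal infection, wounding and salt, stood at 71.8, 60.8 and 43.8 CPM and at 130, 91.7 and 316 CPM (edgeR adjusted p = 0.286). YPT41 replicate 4 was the highest library for all 4 of these genes. Next to nlp-29 in gene order are nlp-30, nlp-31 and nlp-34, and in all 4 of these neighbours the strains did not overlap. Of other nlp genes, nlp-28 also had strains apart, at 5.87, 4.94 and 6.87 CPM against 8.52, 9.08 and 45 CPM, and in nlp-27 the strains overlapped, at 55.7, 35.2 and 80.7 CPM against 102, 42 and 374 CPM. Reads shared between these similar genes leave their division uncertain. The call of cnc-2 was lost without 15eh1 replicate 2, 3 or 4 and without YPT41 replicate 3 (edgeR adjusted p = 0.184, 0.226, 0.273 and 0.0976). Without YPT41 replicate 4, 3 members passed, and without YPT41 replicate 2, 5 members of the list passed instead of 1, all lower in 15eh1: cnc-2, cnc-4, cnc-10, nlp-30 and nlp-34. N2 means were 0.197 CPM for cnc-2, 6.07 CPM for cnc-4 and 41.1 CPM for nlp-29.

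**Figure D4:**
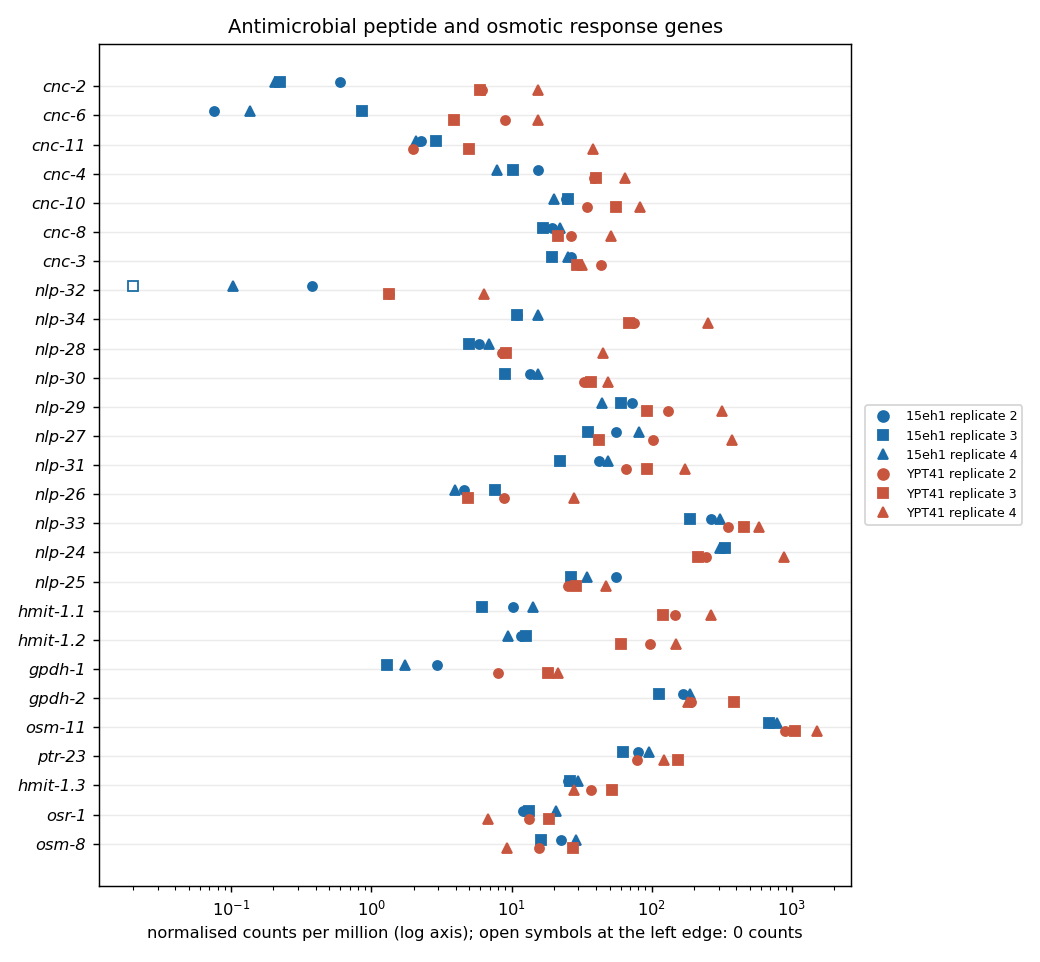
Normalised counts in CPM (log axis) of the 18 antimicrobial peptide genes and of the osmotic response genes, 1 symbol per library, 15eh1 in blue and YPT41 in red; nlp-29 belongs to both lists and is drawn once, and osm-11 and ptr-23 are among the osmotic genes. Blue symbols lie to the left of red ones for hmit-1.1, hmit-1.2, cnc-2 and cnc-4, and the strains overlap for nlp-24, nlp-25, osr-1 and osm-8.

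Predicted glycosyltransferases of the bgnt and gtnt families gave 3 genes that were lower in 15eh1, all on chromosome V. The gene bgnt-1.2 stood at 0.0753, 0.0449 and 0.0342 CPM in 15eh1 and at 1.62, 2.77 and 3.83 CPM in YPT41. It had 3 pooled counts in 15eh1 and 116 in YPT41, a ratio of 58.7 with a counting interval of 19.6 to 289 (edgeR adjusted p = 0.0218). The gene bgnt-1.3 stood at 0.0753, 0.135 and 0.171 CPM and at 2.78, 3.32 and 5.72 CPM (log2 fold change -4.80, SE 0.51, edgeR adjusted p = 0.0218). Its levels in 15eh1 were near the floor of counting, so the size of the difference is not well known. The gene gtnt-41 stood at 0.376, 0.718 and 0.752 CPM and at 4.58, 6.75 and 6.39 CPM (log2 fold change -3.21, SE 0.39, edgeR adjusted p = 0.0356). A further gene, gtnt-25, stood at 0.301, 0.359 and 0.992 CPM and at 5.97, 8.86 and 14.1 CPM and did not pass (edgeR adjusted p = 0.0511). The members did not all go one way. Of the 23 tested bgnt and gtnt genes 10 were above 0 and 13 below, with a median log2 fold change of -0.24. Strains were apart with 15eh1 lower for 7 (30.4%, against 8.94% of all tested genes) and higher for 3 (13%, against 7.42%). All of the 7 but gtnt-39, on IV, lie on V, where 14.8% of all tested genes had strains apart with 15eh1 lower. The list also held 16 tested gly genes, of which 14 were above 0, with a median of 0.17 and strains apart for 1 with 15eh1 lower and for 2 with it higher. None of the 3 genes passed when 15eh1 replicate 2, 3 or 4 or YPT41 replicate 3 was left out. Without YPT41 replicate 2 the list gave 4 genes that were lower and 4 that were higher, and without YPT41 replicate 4 it gave 4 that were lower.

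The remaining genes that were lower in 15eh1 are of mixed or unknown role. The gene srlf-34, on II, stood at 9.03, 4.85 and 3.59 CPM in 15eh1 and at 66.3, 122 and 280 CPM in YPT41 (log2 fold change -4.76, SE 0.63, edgeR adjusted p = 0.0435), against a mean of 1.91 CPM in N2. F48C1.11, on I, stood at 0.151, 0.18 and 0.0684 CPM and at 6.78, 10.5 and 4.93 CPM (edgeR adjusted p = 0.0111). K01D12.1, on V, stood at 0.301, 0.224 and 0.0684 CPM and at 3.77, 6.64 and 5.66 CPM (edgeR adjusted p = 0.0275). For F48C1.11 and K01D12.1, levels in 15eh1 were near the floor of counting, so the size of the difference is not well known. C04A11.5, the 1 gene of X that passed, stood at 2.11, 1.57 and 1.61 CPM and at 7.42, 8.19 and 8.22 CPM (log2 fold change -2.18, SE 0.28, edgeR adjusted p = 0.0435). Among genes that did not pass was the asparagine synthetase gene asns-2 at 212, 180 and 235 CPM against 509, 626 and 521 CPM (edgeR adjusted p = 0.0751). The phosphodiesterase delta-like gene pdl-1 stood at 5.27, 5.57 and 5.2 CPM against 12.8, 16.7 and 17 CPM (edgeR adjusted p = 0.0651).

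Genes higher in 15eh1 outside the end of II included a lectin, a receptor cyclase and a neighbour of an infection response gene. The C-type lectin gene clec-76, on IV, stood at 18, 13.5 and 17.1 CPM in 15eh1 and at 1.91, 3.43 and 1.7 CPM in YPT41 (log2 fold change 2.81, SE 0.33, edgeR adjusted p = 0.0313). The receptor guanylyl cyclase gene gcy-13, on V, stood at 1.35, 1.53 and 1.54 CPM and at 0.116, 0.111 and 0.122 CPM, from 97 and 5 pooled counts, a ratio of 12.8 with a counting interval of 5.3 to 40.3 (edgeR adjusted p = 0.0435). Its mean in N2 was 0.155 CPM, near YPT41. C32H11.4, on IV, stood at 30.3, 40.4 and 27.7 CPM and at 5.97, 5.2 and 5.84 CPM (log2 fold change 2.53, SE 0.23, edgeR adjusted p = 0.0111). Its neighbour irg-6, an infection response gene, stood at 11.7, 12.4 and 9.4 CPM and at 2.61, 1.88 and 0.73 CPM and did not pass (edgeR adjusted p = 0.0895). The gene dod-24, named as downstream of the insulin pathway factor DAF-16 and known to respond to bacterial infection, stood at 51.6, 86.3 and 61.5 CPM and at 11.3, 15.4 and 6.09 CPM (edgeR adjusted p = 0.055). Y50D4B.4, on V, stood at 12.9, 14.8 and 13.4 CPM and at 4.34, 2.66 and 3.35 CPM (log2 fold change 1.98, SE 0.26, edgeR adjusted p = 0.0438).

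Further genes with 15eh1 higher came close to the threshold and did not pass. The cuticle collagen gene sqt-1, which like sqt-2 is known for body shape mutants, stood at 568, 429 and 679 CPM in 15eh1 and at 177, 182 and 142 CPM in YPT41 (log2 fold change 1.74, SE 0.25, edgeR adjusted p = 0.055). N2 had a mean of 648 CPM. Of the 17 tested named cuticle collagens, sqt-1 and sqt-2 were those with strains apart, and the list's median log2 fold change was -0.02. The glutathione S-transferase gene gst-24 stood at 143, 161 and 105 CPM and at 19.4, 9.41 and 33 CPM (edgeR adjusted p = 0.0853), with an N2 mean of 19.9 CPM. The P-glycoprotein gene pgp-8, of a family of efflux transporters, stood at 23.4, 22 and 16.3 CPM and at 3.3, 0.997 and 0.548 CPM (edgeR adjusted p = 0.0853), with an N2 mean of 1.74 CPM. For sqt-1 the N2 level was nearer to 15eh1, and for gst-24 and pgp-8 it was nearer to YPT41, which was not tested.

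Beyond the silent genes at the end of II, others had few or no reads in 1 strain. The limit was at least 30 pooled counts in one strain and at most 3 counts in each library of the other. By this limit, 44 of the 20389 counted genes were low in YPT41 and 8 in 15eh1. Many of them did have reads in the lower strain. The gene inx-8 had 30 pooled counts in 15eh1 and 8 in YPT41, a ratio of 2.47 with a counting interval of 1.11 to 6.24. Most were too low to be tested: 11 of the 44 and 2 of the 8 were tested. YPT41 replicate 3 has the fewest counts of the libraries, and the part of depth in these numbers was not tested. The gene pud-2.2 shows how 1 library can carry such a case, with 299 pooled counts in 15eh1, of which 294 came from replicate 4, and 0 in YPT41. The tested genes other than those of the end of II, gcy-13 and bgnt-1.2 were clc-32, oac-24, T23E1.1 and Y39B6A.69, low in YPT41, and C45B2.8, low in 15eh1. None of these passed the test.

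**Figure D5:**
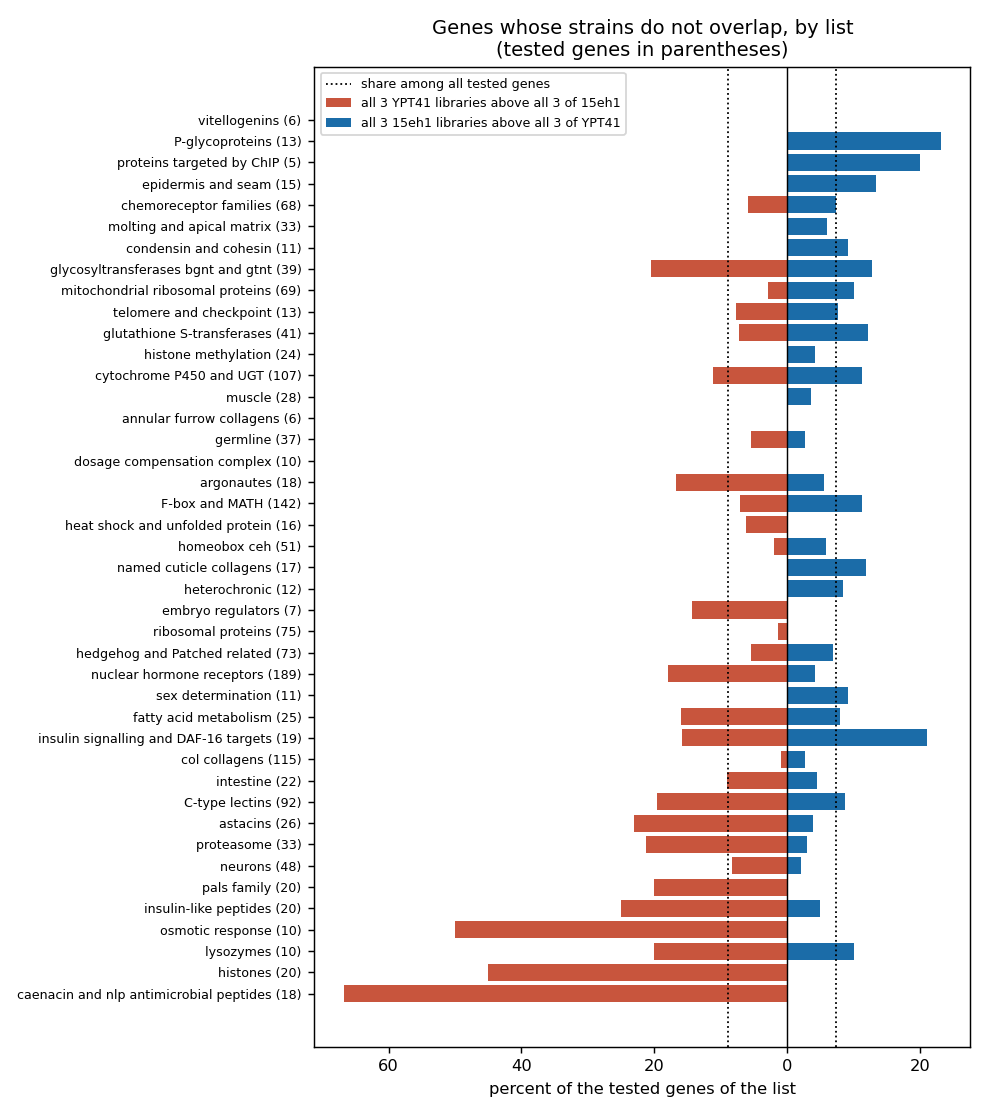
Percent of the tested genes of each of 42 lists whose strains do not overlap, to the left where 15eh1 is lower and to the right where it is higher, ordered by the list's median log2 fold change; dotted lines mark 8.94% and 7.42%, the shares among all tested genes. The longest bars to the left belong to the antimicrobial peptides (66.7%), the osmotic response (50%) and the histones (45%).

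Of 43 gene lists with a tested member, 5 held a gene that passed the test: the antimicrobial peptides, the osmotic response, the glycosyltransferases, the C-type lectins and the named cuticle collagens. The other 38 held none by edgeR. Of the 1415 tested genes on those 38 lists, 50 were higher and 94 lower in 15eh1 at an unadjusted p under 0.05 by edgeR. Over all 13099 tested genes, 1261 had such a p in either direction. DESeq2 gave 12 and 27 on these lists, against 83 and 208 of all 13064 genes it tested. Among the 38 lists, the log2 fold change of histone genes had its median at -0.90, and 9 of 20 had strains apart with 15eh1 lower (45%, against 8.94%). The histone gene his-32 stood at 1.88, 3.64 and 3.21 CPM in 15eh1 and at 11.5, 10.4 and 9.43 CPM in YPT41 (edgeR adjusted p = 0.0919). Histone genes are near-identical copies, so their counts are uncertain. Of 189 nuclear hormone receptor genes, 34 had strains apart with 15eh1 lower (18%, against 8.94%) and 8 with 15eh1 higher (4.23%, against 7.42%), with nhr-53 at 8.21, 8.12 and 5.47 CPM against 19.1, 17.5 and 18.9 CPM (edgeR adjusted p = 0.104). The C-type lectins, which hold the called clec-76, had 18 of 92 genes with strains apart and 15eh1 lower (19.6%, against 8.94%) and 8 with 15eh1 higher (8.7%, against 7.42%), and clec-82 stood at 7.75, 3.59 and 15.3 CPM against 40.1, 75.4 and 100 CPM (edgeR adjusted p = 0.123). Of 20 insulin-like peptide genes, 5 had strains apart with 15eh1 lower (25%, against 8.94%) and 1 with 15eh1 higher, and ins-26 stood at 7.98, 9.11 and 7.66 CPM against 17.5, 42.5 and 19.5 CPM (edgeR adjusted p = 0.164).

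Of 33 proteasome genes 30 were below 0, with a median of -0.27 on the log2 scale, and 7 had strains apart with 15eh1 lower (21.2%, against 8.94% of all tested genes). The gene rpt-4, at the left end of II, was the 1 member with strains apart and 15eh1 higher (3.03%, against 7.42%). The cytoplasmic ribosomal protein genes had a median of -0.09, and their summed level was 144300, 149000 and 121500 CPM in 15eh1 and 132000, 113100 and 190400 CPM in YPT41, highest in YPT41 replicate 4. The mitochondrial ribosomal protein genes had a median of 0.11 over 69 genes. The neuronal list had a median of -0.35 with 39 of 48 genes below 0, and 4 of the 48 had strains apart with 15eh1 lower (8.33%, against 8.94%). Muscle, germline, heterochronic and homeobox lists had medians of 0.06, 0.05, -0.03 and -0.01. The part of library differences inside YPT41 in these medians was not tested.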

How the data were processed

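RNA-seq read counts per gene (whole counts) were deposited as 1 table per library. The submitters' processing notes name TopHat2 2.1.1 and HTSeq among the tools of the series, besides SAMtools 1.6, CASAVA 1.8, bedtools, MACS 1.4.3 and Bowtie 1.2.0, without their roles. For the genome build, the annotation and the strand setting the entry is: not given in the sources used here. Overlapping and antisense genes therefore cannot be told apart. The design text names L3 larvae, the labels L1-L3, and the labels' protocols describe embryo ChIP. The summary lines were left out of library sizes (reads without a feature 2.56% to 3.69%, not unique 13.2% to 22.2%).

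Symbols, chromosomes and gene order came from RefSeq's gene table for WBcel235, in which 19879 of the 20389 identifiers were found by locus tag and 510 were not. Its start coordinates were used to order the genes, and distances in bases were not used. Of 13099 tested genes, 12894 had a chromosome. The test was the quasi-likelihood test of edgeR 4.0.16 under R 4.3.3 (TMM scaling, filterByExpr, strain as the only term, Benjamini-Hochberg adjustment, threshold 0.05, two-sided). Normalised CPM are counts over TMM-scaled library sizes, and relative window levels use log2 CPM with a prior count of 2. The SE of a log2 fold change is its absolute value over the square root of the test's F statistic, not an estimate given by edgeR. Ratios of pooled counts carry 95% intervals. Replicates of a strain did not repeat each other (lowest chi-square per gene 18.1).

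Named genes are those that passed with strains apart, a mean of at least 1 CPM and a gene name, filled to 12 per direction by p-value. To them come the first 2 of each list with 2 called genes and the 4 highest at the left end of II and at the right end of V. Genes with few or no reads in 1 strain (at least 30 pooled counts against at most 3 per library) and the dosage compensation genes were added. Others were named after their values were seen. The genes compared and the lists were chosen with earlier results of these data known. Alternatives were RLE scaling, no filter, DESeq2 1.42.0, a replicate block, N2 in the fit, other window sizes and leaving out each library.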

Additional observations from a re-analysis of the deposited data

How the results depend on the processing

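The number of genes past the threshold was 21 with RLE scaling, 65 with no filter on low counts (27 higher, 38 lower in 15eh1), 291 with DESeq2 (83 higher, 208 lower) and 74 with N2 in the fit (31 higher, 43 lower), and each of these sets held all 21. Leaving out single libraries gave 3 to 293. For each gene, the deviation of a library's log2 CPM from the mean of its strain was taken. These deviations correlated at -0.131, 0.053 and 0.13 between libraries of the 2 strains with the same replicate number. Pairs with unlike numbers ranged from -0.207 to 0.195. With 3 libraries per strain, these values cannot tell whether equal numbers mark a shared batch. The replicate block gave 13 genes (8 higher, 5 lower), 8 of them among the 21, and turned dpy-28 to 0.092. The median of the left end of II was 0.68 with no filter, 0.81 in a window of 50 genes, 0.46 in one of 200, 0.55 inward of the silent genes, and 0.57 to 0.72 without single libraries. The median of the left end of V was -0.10 with no filter and -0.41 to -0.11 without single libraries. The right end of V stayed between -0.80 and -0.70 without single libraries. Genes whose sign changed without single libraries ranged as follows on the log2 scale: mlt-8 from -0.167 to 0.256, with -0.097 between, sdc-1 from -0.2 to 0.036, sdc-2 from -0.229 to 0.6, sdc-3 from -0.14 to 0.477, dpy-26 from -0.152 to 0.118, dpy-27 from -0.132 to 0.226, dpy-28 from -0.371 to 0.311 and dpy-30 from -0.197 to 0.026. The cause was not tested. Depth limits the low genes: 3 counts are 0.111 to 0.364 CPM.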
